A study of Mus musculus with 12 samples.

Results

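Otx2, Pou3f1, T, Mixl1, Gsc, Mesp1, Tbx6, Lhx1 and Hand2 encode transcription factors of the primed epiblast and of the mesoderm that forms from it. They were followed across 12 mouse RNA samples, each hybridised once to a one-colour (Cy3) Agilent array. Their probes were chosen by name: every gene probe whose deposited gene name, or current symbol by accession, was one of these 9. This gave 12 probes of 41174, for 9 of the 25415 genes measured, and all 12 probes were well above background on at least 1 array. A level below is the log2 processed signal minus the 75th percentile of its array, so that 0 is the signal at that percentile. A difference of 1 between levels of the same probe is 2-fold.

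All the induced pluripotent stem (iPS) samples had received Oct4 (Pou5f1). The 2 Bmi1-Oct4 lines came from mouse embryonic fibroblasts (MEF) given Bmi1, a Polycomb subunit, and Oct4. The labels describe the Shh-Oct4 line (1 line), the oxysterol-Oct4 lines (2) and the purmorphamine-Oct4 lines (2) as neural stem cell-like cells, from embryonic fibroblasts, that were treated with a hedgehog pathway activator and then given Oct4. Shh is a hedgehog ligand, oxysterols are oxidised cholesterol derivatives and purmorphamine is a synthetic agonist of Smoothened. For the 2 tail-tip lines, adult fibroblasts of the tail tip received oxysterol and Oct4. The references were 1 array of embryonic stem (ES) cells from 129/Ola mice, 1 of untreated MEF and 1 of Bmi1 spheres, which are fibroblasts transduced with Bmi1 and labelled neural stem cell-like. The description field of that last sample calls it iPS, against its title and source name, which were followed. Strain and age are not given for the other cells, nor are doses, passage, or whether numbered lines were separate cultures. If they were not, the p-values measure technical spread.

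In the embryo, naive pluripotent cells become the primed epiblast, a step in which Otx2 and Pou3f1 (Oct6) act. Nodal, Wnt and BMP signals then induce the primitive streak, where T (brachyury), Mixl1, Gsc and Lhx1 mark mesendoderm and the organizer region. Mesp1 marks the first cardiac mesoderm, Tbx6 the presomitic mesoderm, and Hand2 the heart, limb and other lateral mesenchyme. ES and iPS cells in culture can hold a minority of cells that have entered these states.

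Probe sequences are shown for the genes with 2 probes, Hand2, Mesp1 and Lhx1 (its brighter probe only), and for Otx2. The 2 Hand2 probes (plus strand of the mm7 build of the array design, chr8:55705252-55706611 and chr8:55705289-55706648) share 23 bases, printed in capitals. Each spans 1360 bases of the genome with 60 bases of probe, so 1300 bases of gap lie within it.
Hand2, brighter probe: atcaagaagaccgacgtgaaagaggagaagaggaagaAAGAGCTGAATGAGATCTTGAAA
Hand2, dimmer probe: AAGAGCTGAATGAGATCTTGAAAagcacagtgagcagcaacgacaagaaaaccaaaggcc
The 2 Mesp1 probes (minus strand, chr7:75661057-75661116 and chr7:75660860-75660919) do not overlap. Their first 30 bases follow.
Mesp1, brighter probe: acaatgcaacggatgattgtcaccctgtct
Mesp1, dimmer probe: aagatgaagcaggcacaagctttgcctggt
The brighter Lhx1 probe is at chr11:84589497-84589556 on the minus strand, and a second, dimmer one is at chr11:84588294-84588353.
Lhx1, brighter probe: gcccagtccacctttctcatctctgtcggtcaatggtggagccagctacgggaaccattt
Otx2 had a single probe at chr14:43989807-43989866 on the minus strand, which begins as follows.
Otx2: agatcattggtttcctgatttgcaaatgat
The remaining genes had 1 probe each: Pou3f1 at chr4:124103741-124103800, Tbx6 at chr7:122882043-122882102 and T at chr17_random:1303091-1303150 on the plus strand, and Mixl1 at chr1:180673929-180673988 and Gsc at chr12:101965538-101965597 on the minus strand. Exon and UTR annotation of that build was not used here.

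The share of spots well above background, which stands for depth on an array, ran from 58.41% in the Shh-Oct4 line to 79.99% in the spheres. The floor, the lowest level among probes well above background on an array, ran from -7.27 to -4.2. The naive and core pluripotency list (13 genes measured) had a median level between 3.32 and 4.08 in the 9 iPS lines, 3.71 in ES, -3.96 in MEF and -4.50 in the spheres. Of 11 neural stem cell genes, 9 were well above background on the sphere array and also 9 on the MEF array, but not the same 9. Gfap was alike in both (-0.21 in the spheres, -0.11 in MEF). Pax6 (-2.92) and Sox1 (-4.32) were well above background in the spheres and not in MEF (-8.02 and -6.92). Slc1a3 (-8.74) and Prom1 (-8.97) were the 2 not above background in the spheres, beside -0.31 and -0.27 in MEF. The stem cell factor Sox2 (-9.14) was also not above background in the spheres. The sphere array also held Afp at 1.29, a fetal liver and yolk sac gene that was not above background in MEF or ES. Results against the spheres rest on this 1 array.

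Otx2, the homeodomain factor of the primed epiblast and anterior neural plate, was well above background in every pluripotent sample and below background in fibroblasts and spheres. Its level was 0.02 at the highest in the 9 iPS lines, -2.28 at the median and -3.09 at the lowest, with a mean of -2.09 ± 0.95 (SD, n = 9). ES cells stood at -1.73, MEF at -8.94 and the spheres at -9.09. All 9 lines lay above both MEF and the spheres, 2 of them lay above ES, and the lines and the fibroblast array did not overlap. The probe was spotted 10 times on each array, and the SD over spots, which covers technical error within an array only, ran from 0.05 to 0.21.

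Hand2, a bHLH factor of heart, limb and mesenchyme, ran the other way on both probes. On the brighter probe, well above background on all 12 arrays, the lines ran from -2.30 to -1.48 with a median of -1.69 and a mean of -1.75 ± 0.26 (SD, n = 9). MEF stood at 0.63, ES at -2.12 and the spheres at -1.24. The MEF array was the highest, the spheres came next, and no line reached either. On the dimmer probe MEF stood at 0.52 and was again the highest, with the spheres at -4.82 and ES at -7.43, below background. The lines spread more widely on that probe, from -7.47 through a median of -6.26 to -3.07, and only purmorphamine-Oct4 line 2 (-3.07), tail-tip line 2 (-3.16) and tail-tip line 1 (-3.80) were well above background. A list of 14 fibroblast genes had median levels of 0.37, 0.64 and -3.10 in those same 3 lines, between -4.73 and -0.64 in the other 6, and 3.55 in MEF. All 14 of its genes were well above background in MEF and 6 to 12 in the lines. Its summed linear signal was 35.7, 55.3 and 4.22 in those 3 lines, 4.03 to 15.3 in the other 6 and 189.8 in MEF, and Postn and Fap were below background in every line. The part of remaining fibroblasts in the Hand2 level of those 3 lines was not tested. In such bulk samples, fewer cells of a type and less RNA per cell cannot be told apart.

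**Figure D1:**
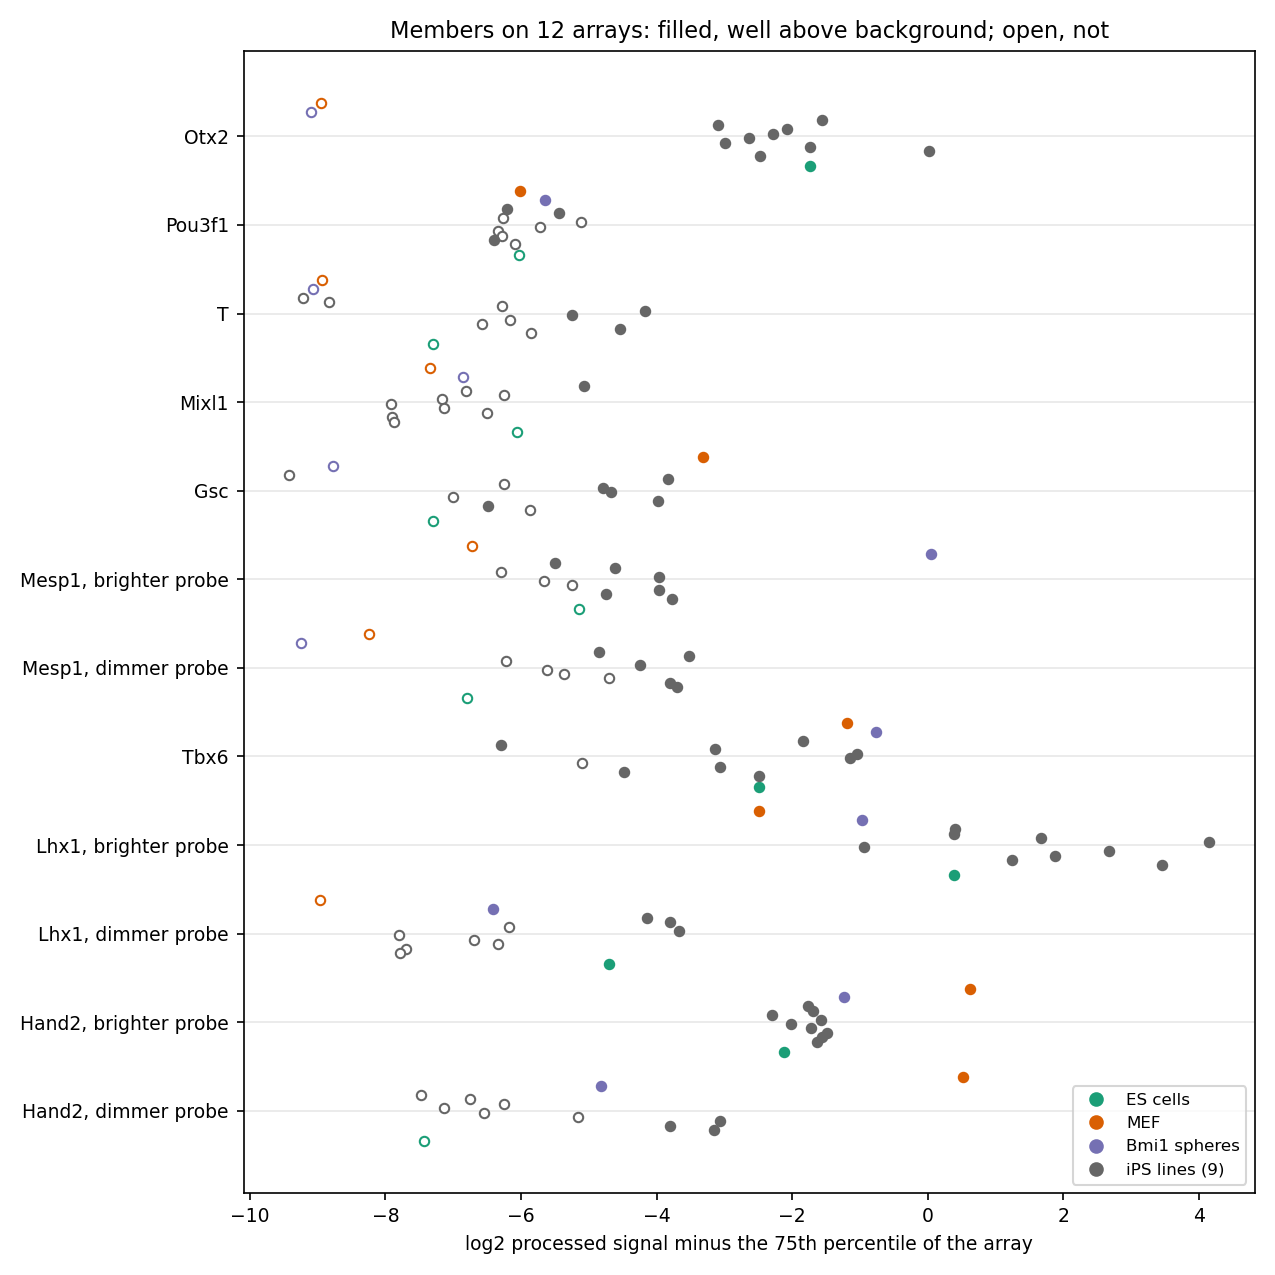
Level of each of the 12 probes on each of the 12 arrays (log2 processed signal minus the 75th percentile of the array), 1 point per array, filled where the probe was well above background and open where it was not; the iPS lines are offset vertically to separate them. Otx2 lies between -3.09 and 0.02 in the lines and near -9 in MEF and the spheres, and both Hand2 probes are highest in MEF.

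Against the MEF array, 1 of the 9 genes rose in the iPS lines and 1 fell (limma, 4 classes, Benjamini-Hochberg over all genes, threshold 0.05). Over all 25403 genes tested, 8.18% were called higher and 2.74% lower, 10.9% in either direction. Without adjustment, 3 of the 9 were under 0.05 on their brighter or only probe. The median difference of the 9 was 0.39, beside 0.44 over all genes. The count and the median of the 9 genes stood near the background of this comparison.

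Otx2 was higher in the lines by 6.85 (SE 0.93, limma adjusted p = 0.00121), which, with the MEF signal raised to its floor, is at least 27.1-fold. Hand2 fell by 2.38 on the log2 scale (SE 0.39, limma adjusted p = 0.00383), or 5.2-fold, and the dimmer probe fitted by itself differed by -6.01 (SE 1.64, adjusted p = 0.0468). Within the slide that held MEF, the 2 Bmi1-Oct4 lines alone gave 6.62 for Otx2 and -2.36 for Hand2. The size of the Otx2 difference, and with the highest floor its call, depended on how dim signals were read. The highest floor of the 12 arrays was that of the Shh-Oct4 line (-4.2), beside -6.85 for MEF. With every signal brought up to it the Otx2 difference was 2.10 and did not pass (limma adjusted p = 0.237). With normexp background correction the Otx2 difference was 3.09 and passed (limma adjusted p = 0.0251).

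Lhx1, a LIM homeodomain factor of the head organizer and intermediate mesoderm, spread widely among the lines. Its brighter probe stood at 0.41 and 0.39 in the Bmi1-Oct4 lines, 1.68 in the Shh-Oct4 line, 4.15 and -0.95 in the oxysterol-Oct4 lines, 2.67 and 1.88 in the purmorphamine-Oct4 lines, and 1.24 and 3.46 in the tail-tip lines. ES stood at 0.39, MEF at -2.48 and the spheres at -0.98. The 2 oxysterol-Oct4 lines thus held both the highest and the lowest level of all 9, 5.09 apart. Repeat spots of an array, a technical measure only, had an SD of at most 0.38. All 9 lines lay above MEF and 7 above ES, but the difference from MEF, 4.14 (SE 1.52, 95% interval 0.76 to 7.52), did not pass after adjustment (limma adjusted p = 0.111). The dimmer Lhx1 probe ordered the lines differently. It was well above background in both Bmi1-Oct4 lines (-4.14 and -3.80), oxysterol-Oct4 line 1 (-3.67), ES (-4.71) and the spheres (-6.42), and not in tail-tip line 2 (-7.78) or purmorphamine-Oct4 line 1 (-6.70), which were among the highest on the brighter probe. Only oxysterol-Oct4 line 1 was the highest line on both.

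T, the T-box factor of the nascent streak, was at the edge of detection. It was well above background in oxysterol-Oct4 line 1 (-4.17), tail-tip line 1 (-4.53) and oxysterol-Oct4 line 2 (-5.24), and on no other array. The remaining lines stood at -9.21 and -8.84 (Bmi1-Oct4), -6.29 (Shh-Oct4), -6.17 and -6.57 (purmorphamine-Oct4) and -5.86 (tail-tip line 2). ES at -7.30, MEF at -8.94 and the spheres at -9.07 were all below background. The 3 detected lines were made with oxysterol, 1 of them from tail-tip fibroblasts. Tail-tip line 2, also made with oxysterol, was not detected. The floors of the Shh-Oct4 array (-4.2) and the purmorphamine-Oct4 arrays (-4.82 and -4.51) lay above the T level of oxysterol-Oct4 line 2. No probe at so low a level was well above background on those arrays, and the part of the floors in this pattern was not tested. The lines differed from MEF by 2.62 (limma adjusted p = 0.321) and from ES by 0.98 (95% interval -2.65 to 4.62), neither of which passed. Within the slide that held MEF and ES, the Bmi1-Oct4 lines alone gave -0.08 against MEF and -1.72 against ES, with all of these arrays below background.

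**Figure D2:**
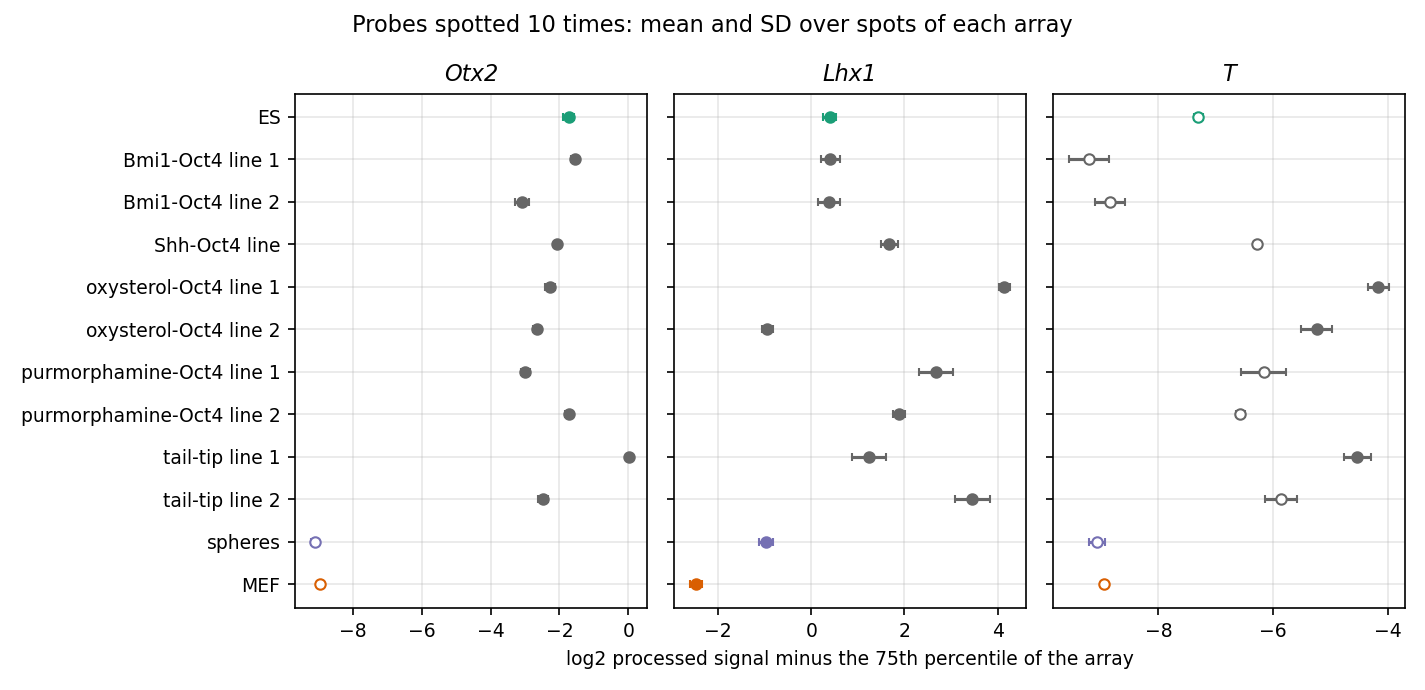
Mean level of the probes of Otx2, Lhx1 and T that were spotted 10 times, per array (log2 processed signal minus the 75th percentile of the array), with bars for the SD over the spots of that array; filled points were well above background. The oxysterol-Oct4 lines take the highest (4.15) and the lowest (-0.95) Lhx1 level among the lines, and T is filled in 3 lines only.

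Among the other streak genes, Gsc, a homeobox gene of the organizer, was highest in fibroblasts. MEF stood at -3.32, while ES (-7.30) and the spheres (-8.77) were below background. The lines ran from -9.42 through -5.87 to -3.83, and 5 of 9 were well above background. The 2 Bmi1-Oct4 lines were at the 2 ends of that range. No line reached MEF, yet the difference of -2.49 (SE 1.66) did not pass (limma adjusted p = 0.352). With every signal brought up to that highest floor it was -0.81 and passed (limma adjusted p = 0.00591). Among the lines only Bmi1-Oct4 line 2 (-3.83) and purmorphamine-Oct4 line 2 (-3.98) lay above that floor. All other lines were given the same value, which narrows the spread that the test uses, so this p-value does not show a fall. Mixl1, a homeobox gene of mesendoderm, was well above background on 1 array, Bmi1-Oct4 line 1 (-5.08). Its other lines ran down to -7.91, and ES (-6.05), MEF (-7.34) and the spheres (-6.85) were all below background. Pou3f1, the POU factor of the primed epiblast, was well above background on 5 arrays: MEF (-6.01), the spheres (-5.64), both Bmi1-Oct4 lines (-6.21 and -5.44) and tail-tip line 1 (-6.40). Its lines spanned 1.28 in all and differed from MEF by 0.03 (95% interval -1.13 to 1.19). These signals lie close to the array floors, where a difference in RNA of this size could not be resolved.

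Tbx6, a T-box factor of presomitic mesoderm, was detected in both fibroblasts and pluripotent cells. It stood at -1.19 in MEF, -0.77 in the spheres and -2.48 in ES. The lines were at -1.84 and -6.30 (Bmi1-Oct4), -3.15 (Shh-Oct4), -1.05 and -1.15 (oxysterol-Oct4), -5.11 and -3.07 (purmorphamine-Oct4), and -4.48 and -2.49 (tail-tip). Purmorphamine-Oct4 line 1 was not above background, and the oxysterol-Oct4 lines were the only ones above MEF. The spread of 5.25 among the lines was larger than the difference from MEF, -1.99 (SE 1.71, limma adjusted p = 0.464), or from the spheres, -2.41 (adjusted p = 0.453).

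Mesp1, a bHLH factor of early cardiac mesoderm, gave a different answer on each of its probes. On the brighter probe the lines ran from -6.30 through -4.75 to -3.77 (6 of 9 well above background), ES was at -5.14 and MEF at -6.72, both below background, and the spheres were at 0.05. On the dimmer probe the lines ran from -6.23 through -4.70 to -3.52 (5 of 9 well above background), and ES (-6.79), MEF (-8.24) and the spheres (-9.24) were all below background. The 2 probes thus gave much the same range over the lines and opposite places to the spheres. All 9 lines lay above MEF on both, but MEF and several lines were below background there, so this order is partly one of background values. On the brighter probe the Shh-Oct4 line, the lowest, had an unscaled signal of 18.31, beside 17.74 in MEF. Against MEF the brighter probe differed by 1.86 (limma adjusted p = 0.195), and the dimmer, fitted by itself, by 3.57 (SE 0.93, adjusted p = 0.0387), with 5 of 9 lines and no MEF signal above background.

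**Figure D3:**
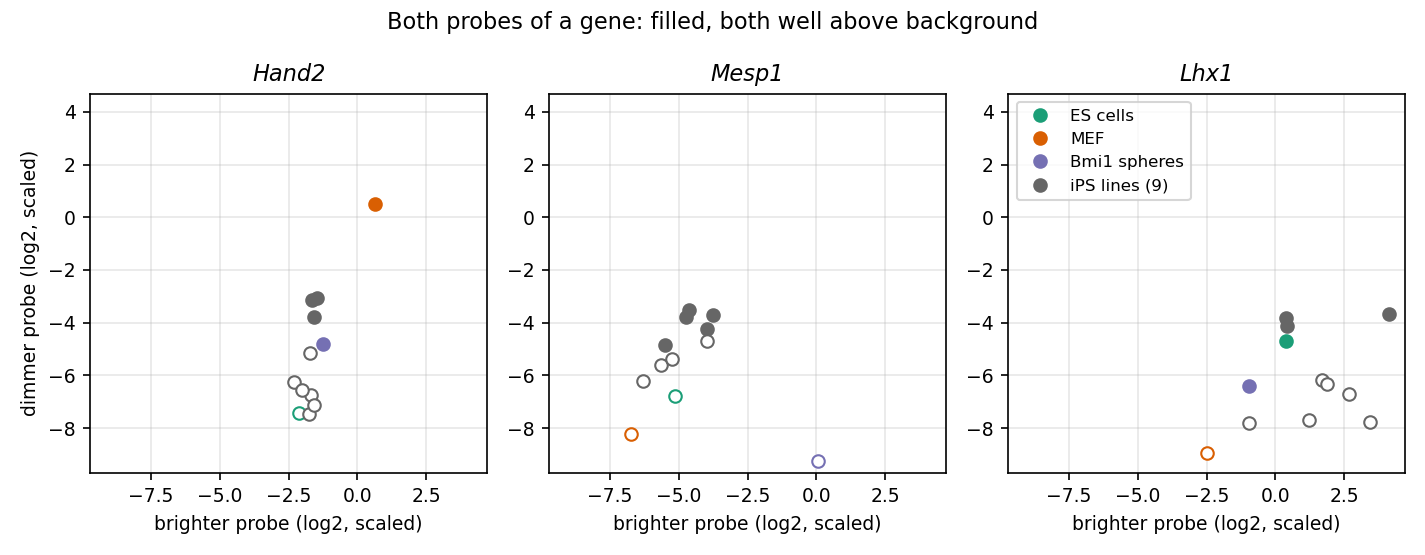
Levels of Hand2, Mesp1 and Lhx1 on their brighter probe (horizontal) and dimmer probe (vertical), both as log2 processed signal minus the 75th percentile of the array, 1 point per array, filled where both probes were well above background. MEF is highest on both Hand2 probes, while the spheres are highest on the brighter Mesp1 probe (0.05) and lowest on the dimmer one (-9.24).

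Against the ES array none of the 9 genes passed the test (limma, Benjamini-Hochberg), and none had an unadjusted p under 0.05 on its brighter or only probe. Over 25377 genes, 0.00788% were called higher and 0.0197% lower, 0.0276% in either direction. Otx2 differed by -0.36 (95% interval -2.43 to 1.71) and Hand2 by 0.37 (-0.51 to 1.24). Lhx1 differed by 1.27, with the wider interval of -2.12 to 4.65, and Gsc by 1.49 (-2.19 to 5.17). For 8 of the 9 genes the interval allowed a difference of 2-fold or more in either direction, and for Hand2 it allowed one upwards, so likeness to ES was not shown. The dimmer Lhx1 probe by itself gave the opposite sign, -1.30, and the mean of both probes -0.02. The dimmer Mesp1 probe by itself differed by 2.12 (95% interval 0.06 to 4.19, limma adjusted p = 1).

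Against the Bmi1 spheres, 1 gene rose and 1 fell. The background was 5.86% of 25390 genes called higher and 2.77% lower, 8.63% in either direction, and 2 of the 9 were under 0.05 without adjustment. Otx2 was higher in the lines by 7.0 (SE 0.93, limma adjusted p = 0.000927), at least 28.8-fold, and by 7.28 within the slide that held the spheres. With every signal brought up to the highest floor this was 2.10 (adjusted p = 0.257). Mesp1 was lower by 4.91 on its brighter probe (SE 0.87, adjusted p = 0.00578), and higher by 4.57 on its dimmer probe (SE 0.93, adjusted p = 0.0143), where 5 of 9 lines were above background. The mean of both probes differed by -0.17 (adjusted p = 0.935), so the direction of Mesp1 in the spheres depends on the probe read. Within the spheres' slide the 2 probes gave -4.64 and 4.96. The other 7 genes did not pass, with adjusted p from 0.334 to 0.966.

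The single reference arrays were also compared with each other, without a test, counting genes that differed at least 2-fold and were detected above background in the higher of the arrays. ES against MEF had 2 of the 9 higher and 3 lower, beside 26.6% and 20.7% of 25366 genes (47.3% in either direction). Otx2 was at least 34.8-fold and Lhx1 7.33-fold higher in ES, while Gsc was at least 4.13-fold, Hand2 6.71-fold and Tbx6 2.44-fold lower. Spheres against MEF had 2 higher and 2 lower, beside 33% and 17.6% of 25379 genes (50.5% in either direction). Lhx1 was 2.84-fold higher in the spheres and Mesp1 at least 109-fold higher on its brighter probe only, while Gsc was at least 12.3-fold and Hand2 3.64-fold lower. Otx2, T and Mixl1 were below background in both. Hand2 and Gsc were thus lower than in MEF in both the ES array and the sphere array, and Otx2 was detected in ES but not in the spheres. These 2 comparisons and those of the lines share the MEF array.

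**Figure D4:**
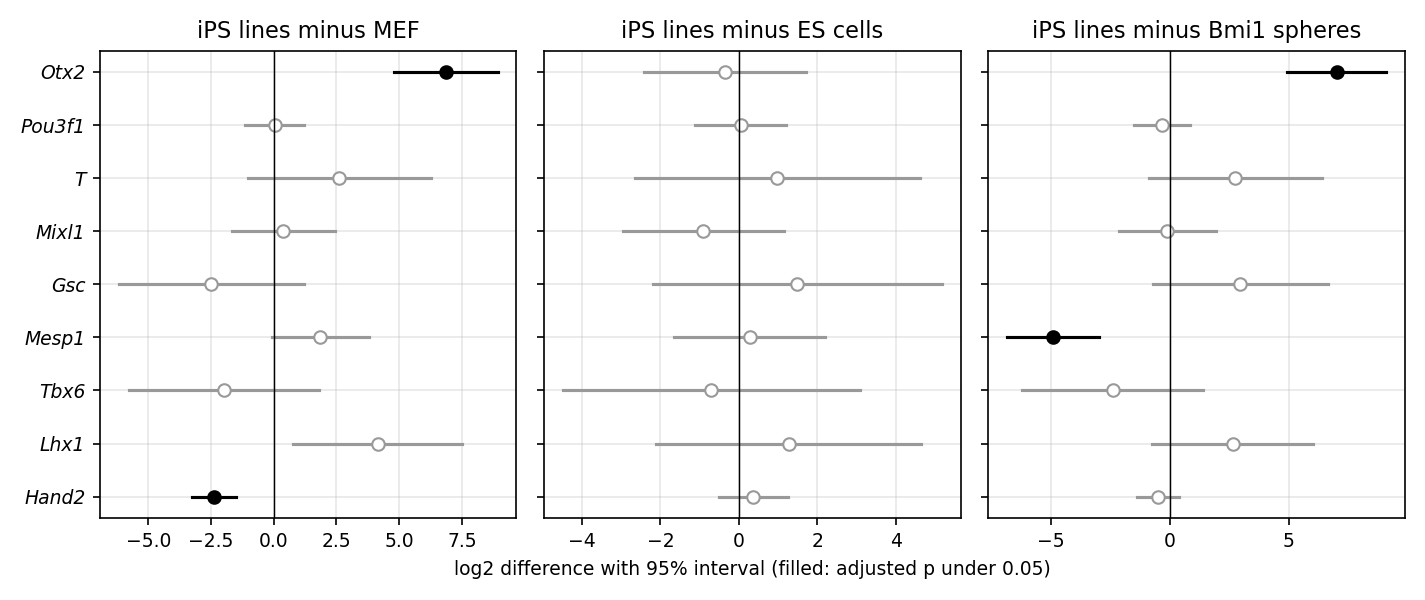
Log2 difference of the 9 iPS lines from MEF, ES and the Bmi1 spheres (1 array each) for each of the 9 genes on its brighter or only probe, with 95% intervals from the limma model; filled points have an adjusted p under 0.05. Otx2 and Hand2 are filled against MEF, none against ES, and Otx2 and Mesp1 against the spheres.

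Between the groups of iPS lines, no gene of the 9 was called, and 0% of all genes were (limma, 8 groups, 4 residual degrees of freedom). The Bmi1-Oct4 lines differed from the oxysterol-Oct4 and purmorphamine-Oct4 lines in T by -3.49 (SE 0.54, limma adjusted p = 0.237). The 2 Bmi1-Oct4 values (-9.21 and -8.84) lay below the 4 others (-6.57 to -4.17), of which the 2 oxysterol-Oct4 lines alone were above background. On the brighter or only probes, T was the only one of the 9 under 0.05 without adjustment, as were 2205 of 25395 genes. The dimmer Hand2 probe by itself differed by -1.63, with an unadjusted limma p of 0.0486. The floors of the 2 Bmi1-Oct4 arrays, -7.27 and -6.88, were lower than those of the 4 others, which ran from -5.83 to -4.51, and their part in the T difference was not tested. The Bmi1-Oct4 lines shared a slide with MEF and ES and with no other line, so slide and group cannot be told apart here.

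Oxysterol-Oct4 and purmorphamine-Oct4 lines differed in Tbx6 by 2.99 (95% interval -0.74 to 6.71), on the dimmer Hand2 probe by -2.73 (SE 0.77, limma adjusted p = 0.873) and in T by 1.66 (95% interval 0.16 to 3.17, adjusted p = 0.871). Both oxysterol-Oct4 lines were below background on that Hand2 probe, as were both purmorphamine-Oct4 lines for T. The floors of the latter arrays, -4.82 and -4.51, lie close to the oxysterol-Oct4 mean of T (-4.71), so no least fold can be given for T. Both agonists act on Smoothened, and the doses are not given. T was 1.87 and Tbx6 1.97 higher in the oxysterol-Oct4 lines within the slide that held both of them and purmorphamine-Oct4 line 2. Among the 9 genes, on the brighter or only probes, 1 was under 0.05 without adjustment, as were 1228 of 25404 genes. The dimmer Hand2 probe had an unadjusted limma p of 0.0113. Tail-tip lines and embryonic fibroblast lines made with oxysterol differed in Otx2 by 1.24 (95% interval -1.12 to 3.59, adjusted p = 0.805), a value that rests on tail-tip line 1: without it the difference was -0.01. Tbx6 differed by -2.39 (95% interval -6.11 to 1.34). On the brighter or only probes, none of the 9 was under 0.05 without adjustment, beside 1649 of 25400 genes. The dimmer Hand2 probe by itself was 3.36 higher in the tail-tip lines (SE 0.77), while the brighter one differed by 0.20. Its limma p was 0.00424 without adjustment and 0.588 after it, for the dimmer probe. The fibroblast list stood at -3.10 and 0.64 in these tail-tip lines and at -0.64 and -4.59 in the oxysterol-Oct4 lines, and its part in the Hand2 difference was not tested.

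The wider pathways were read from lists of related genes. Of 20 genes of the primed and formative epiblast, 6 rose against MEF and none fell, with a median difference of 2.08, and against the spheres 8 rose and none fell. For this and the next lists, 8.18% of all genes were called higher against MEF and 5.86% against the spheres. Among those that rose, Tdgf1, the Nodal co-receptor, was higher than in MEF by 7.10 and Nodal itself by 5.38. Dnmt3b, a de novo DNA methyltransferase, was below background in MEF and at least 86.5-fold higher in the lines. Against the spheres Zic2 and Sall2 passed as well, at least 256-fold and 207-fold higher. These genes are also expressed in ES cells, and none of the list was called against ES.

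Of 19 primitive streak and presomitic genes tested (of 22 listed), 3 rose against MEF and none fell, with a median of 2.32. They were Eomes, a T-box factor of the streak, by 5.17, Sp5, a Wnt target, by 4.71, and Mesp2, a segmentation factor. Mesp2 was well above background in 5 of the 9 lines and not in MEF. Against the spheres 2 of the 19 rose. Of 20 genes of lateral plate, cardiac and somite mesoderm, 3 rose against MEF and none fell, with a median of 0.40, close to that of all genes. Tcf15, a bHLH factor that also marks pluripotent cells leaving the naive state, rose at least 61.9-fold, and Isl1, a factor of heart progenitors, at least 23.5-fold. The other was Tbx20, a cardiac T-box factor, well above background in 7 of 9 lines. All 3 were below background in MEF. Against the spheres 4 of these 20 rose and 1 fell, Meox1, a somite factor, by 3.32.

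Of 10 paralogues of the 9 genes tested, 3 rose against MEF and none fell, with a median of 1.87. Lhx5, the paralogue of Lhx1, rose by 5.75 (SE 0.95, limma adjusted p = 0.0038), and by at least 71.9-fold against the spheres. The other 2 were Eomes and Mesp2, named above. For comparison, 9 of 13 naive and core pluripotency genes rose against MEF, with a median of 5.03, and 5 of 14 fibroblast genes fell, with a median of -5.54. Neural stem cell genes (11) had 2 higher and 1 lower, and extraembryonic endoderm genes (9) had 1 higher, Sox17. No gene of any of these lists was called against ES.

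The genes whose levels most resembled each member were taken from at least 14869 genes by Pearson correlation over the 12 arrays, with dim signals at their floor. These values describe 12 points that share the array scaling and, for several members, 1 or 2 extreme arrays. Lhx1 was followed most closely by Samd4b (0.992), Tpcn2 (0.987) and Olfr1316 (0.984). Otx2 was followed by Spats1 (0.968), Arfgef3 (0.959) and Ankrd45 (0.947), all lower in MEF and the spheres than in ES. Among the genes closest to Hand2 were Ncs1 (0.939) and Mgat1 (0.932), both highest in MEF of the 3 references. Mesp1 on its brighter probe was followed by Olfr686 (0.965), Qdpr (0.964) and Syne2 (0.943), all highest in the spheres of the 3 references. Tbx6 was followed by Hdac7 (0.925), T by Tsnaxip1 (0.922), Gsc by Tmigd3 (0.922) and Pou3f1 by Pcdh15 (0.936). T was well above background on 3 arrays, Pou3f1 on 5 and Gsc on 6. Their values elsewhere were at or near the array floors, which other dim genes share. The part of these floors in their correlations was not tested. Only genes well above background on at least 6 arrays could be chosen, so T, Pou3f1 and Mixl1 could not appear. None of the remaining members was among the 3 closest genes of any member. Mixl1, detected on 1 array, was not itself compared.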

How the data were processed

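The deposited intensity is the background-subtracted processed signal written by Agilent Feature Extraction 9.5.3.1, per the file headers. Deposited flags for spots well above background, saturated or outlying come from the same files. Each array holds 45018 spots, 43379 of them gene spots. The 3 slides were inferred from the name under which each array was deposited, without its array position. Outlier spots were left out, spots of a probe averaged as log2 signal and the array's 75th percentile subtracted. Probes well above background on at least 1 array were kept, and each gene was represented by its brightest probe. Names came from a RefSeq table by accession (22951 probes), by symbol or synonym (9768) or as deposited (8455). A difference is a bound where a group is dim on all its arrays, whose signals were then raised to the array floor.

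Lines were compared as 1 class with MEF, ES and spheres (limma 3.58.1 in R 4.3.3, 4 classes, 8 residual degrees of freedom), and between line groups with 8 groups. Single-array groups were taken to have the spread of the rest. Adjusted p-values are Benjamini-Hochberg over all genes, and the fit was tested on simulated data. For a dimmer probe fitted by itself, the fit and the adjustment were over all kept probes in place of genes. The members and lists were chosen with earlier results of these data known. From each list, up to 4 genes with the largest differences among those that passed were named. Some genes that this rule selects are not reported here. Sox2, Slc1a3, Prom1, Gfap, Pax6, Sox1 and Afp were also given as a check of the sphere array. Alternatives changed normalization, background, filter, probe choice, slide and samples. The only pairing available, clone number, was checked: differences of line 1 minus line 2 correlated between -0.164 and 0.244 across groups, so the numbers do not pair the lines.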

Additional observations from a re-analysis of the deposited data

Results flagged for a closer look

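Otx2 in tail-tip line 1 stood apart from the other iPS lines. Its level was 0.018, while the next line, Bmi1-Oct4 line 1, was at -1.55, and this gap of 1.57 is 0.505 of the whole range of the 9 lines (3.11). The 10 spots of the probe on that array had an SD of 0.05. Of the 12 probes tested this way over the 9 lines it was the only one that stood apart, and chance marks about 1 in 20 groups. Without this line Otx2 differed from MEF by 6.59 (limma adjusted p = 0.000232) and from the spheres by 6.74 (adjusted p = 0.000132).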

How the results depend on the processing

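With probes required to be well above background on at least 6 arrays, only 6 of the 9 genes were tested, without T, Mixl1 and Pou3f1. The number of the 9 genes called stayed at 2 against MEF and at 0 against ES in every alternative that kept 1 value per gene. Against the spheres it was 1 in place of 2 with the mean of all probes of a gene, where Mesp1 was at -0.17 (limma adjusted p = 0.935), and 1 with every signal brought up to the highest floor of the 12 arrays, where Otx2 was at 2.10 (adjusted p = 0.257). That floor also took Otx2 against MEF to 2.10 (limma adjusted p = 0.237). It brought Gsc past the threshold at -0.81 (limma adjusted p = 0.00591), with most lines set to the same Gsc value. The 2 called genes were then Hand2 and Gsc. Mesp1 against the spheres reversed to 4.57 on its other probe (adjusted p = 0.0143), an alternative added after seeing the data. That other probe also brought Mesp1 past the threshold against MEF (3.57, adjusted p = 0.0387). Hand2 against MEF was called in 21 of 21 alternatives, between -4.19 and -2.13, with adjusted p from 0.000559 to 0.0278. Otx2 was called in 20 of 21 against each of MEF (2.10 to 6.98) and the spheres (2.10 to 7.28). Leaving out lines, singly or the 2 arrays with the fewest spots above background or the tail-tip lines, left the counts at 2 against MEF and the spheres and 0 elsewhere. With clone number as a replicate block 0 of the 9 genes were called in each of the 3 comparisons between line groups, as without it. Slide as a fixed block could not be fitted for Bmi1-Oct4 against the agonist lines, which share no slide.

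Counts over all genes moved more. Against MEF 1804 genes were called with slide as a fixed block, beside 2776. Against ES, 81 were called with quantile normalization, 48 with normexp background, 305 with raised floors and 0 to 2 in several others, beside 7. Between line groups raised floors gave 10, 10 and 21 genes in place of 0. Raised floors give all dim signals the same value and so narrow the spread between arrays. The part of this in the added calls was not tested. Signals of T, Mixl1, Gsc and Pou3f1 lie near background on most arrays, which limits what can be said of them.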
